A study of Ovis aries with 32 samples.

Results

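The genes described here encode the proteins that carry long-chain fatty acids into a fat cell and hold them in its cytoplasm. The members were chosen by name: FABP3, FABP4, FABP5, CD36, LPL, VLDLR, GPIHBP1, SLC27A1, SLC27A4 and ANGPTL4. Of the 10 names 9 were found in the deposited data, with 22 of the 35219 transcripts and 9 of the 21271 genes. No row carries the name FABP5 and this gene was not analysed here. The values of the transcripts of a gene were added up, and this gene sum is the level given below.

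RNA was sequenced from preadipocytes of perirenal fat, the visceral depot around the kidney, taken from near-term sheep fetuses, and from adipocytes differentiated from such cells in culture. The ewes were crossbred Columbia-Rambouillet sheep with singleton pregnancies, and growth restriction was produced by heat, with the ewes kept in chambers at 40°C (12 h) and 35°C (12 h) between gestational days 38 and 87. Control ewes were held at 22°C and pair-fed. The 8 groups of 4 libraries are preadipocytes from male controls (MC), female controls (FC), growth-restricted males (MFGR) and growth-restricted females (FFGR), and the differentiated cells of each, MCD, FCD, MFGRD and FFGRD. The composition and duration of the differentiation treatment are not given in the sources used here, nor is it stated that the 4 libraries of a group come from separate fetuses, so p-values measure the spread between these libraries.

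Fat cells obtain fatty acids mainly from triglyceride carried by lipoproteins in the blood. Lipoprotein lipase (LPL), made by adipocytes, releases the fatty acids at the capillary wall, where GPIHBP1 on endothelial cells holds the enzyme and ANGPTL4 inhibits it. CD36 and the fatty acid transport proteins of the SLC27 family then bring fatty acids across the plasma membrane, the VLDL receptor (VLDLR) binds triglyceride-rich lipoproteins, and fatty acid binding proteins (FABPs) carry the lipid in the cytoplasm. FABP4, CD36 and LPL are known as targets of the nuclear receptor PPARG and as products of mature adipocytes.

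Values are normalized reads without correction for a gene's length that can be checked, so levels are compared between libraries and not between genes. The libraries held approximately 7.79 M to 21.31 M reads, and a value of 10 stood for 5.6 to 14.4 reads. In 9 libraries (MCD replicates 2 and 4, MFGR 1, MFGRD 1, FC 2, FCD 2, FFGR 2 and 3, and FFGRD 3) genes with a long genomic span were low relative to the other libraries, with a slope of log2 level on log2 span below -0.05. Those libraries are called low-slope below. Of the adipocyte markers 5 of 6 were found (LEP was not), and their summed level was 17.11 to 279.9 in preadipocytes and 37.46 to 21190 after differentiation. The lowest differentiated library was FCD replicate 4, with ADIPOQ, the gene of the adipocyte hormone adiponectin, at 8.59. The highest preadipocyte library was FFGR replicate 3, with ADIPOQ at 215.7. Of the preadipocyte markers DLK1 did not pass 2.34 in any library, whereas PDGFRA was at 934.8 or more in all 32. In the mean of the 4 groups THY1 rose (median 539.4 in preadipocytes and 1218 after differentiation) and PDGFRB fell (2330 and 1161). PDGFRA, COL1A1 and COL3A1 did not pass the threshold given below.

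FABP4, the fatty acid binding protein of adipocytes, lies on chromosome 9 from 62825357 to 62830354 (coordinates are of Oar_rambouillet_v1.0) and has 1 transcript. In MC its level was 8.54, 14.86, 6.04 and 11.25, and in MCD it was 7654, 44950, 53190 and 167600. In FC it was 23.16, 24.41, 2.96 and 1.56, and in FCD 8138, 7555, 13870 and 215.4. The stages did not overlap in either group, although FCD replicate 4 stood far below the other FCD libraries. In MFGR the 4 values were 112.9, 34.06, 8.45 and 6.19, against 98380, 10980, 4058 and 4055 in MFGRD. In FFGR they were 48.78, 60.86, 444.5 and 4.65, against 32200, 10140, 155000 and 3366 in FFGRD. Again the stages did not overlap, and FFGR replicate 3 was the preadipocyte library with the highest level. In MCD replicate 4 the gene held 1.17% of the sum of all values of the library. FABP4, CD36 and LPL are also expressed by macrophages. The summed level of 6 macrophage markers was 88.41 to 1038 in preadipocytes and 121.8 to 942.4 after differentiation. PTPRC, the leukocyte antigen CD45, did not reach 10 in any differentiated library, but it was at 55.75 in FFGR replicate 4. That library also had the highest CD163 (545.5) and CD36 (192.3) of the preadipocytes. In the mean of the 4 groups CD14 (log2 1.86 ± 0.35) and CD163 (2.85 ± 0.73) rose and CD68 fell (-0.81 ± 0.31). CD163 reached 10 in 3 preadipocyte and 14 differentiated libraries, so it passed the filter for testing through the differentiated ones. The part of macrophages in the changes of these genes was not tested.

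FABP4 rose in each of the 4 differentiation comparisons. The log2 fold change was 11.94 ± 0.77 (SE) in MCD against MC, 8.70 ± 1.33 in FCD against FC, 8.98 ± 1.18 in MFGRD against MFGR and 8.59 ± 1.48 in FFGRD against FFGR, with limma adjusted p-values of 8.08e-05, 0.0382, 0.00785 and 0.0282. Fold changes here and below are on the log2(value + 1) scale, which understates the change of genes near 0, and adjusted p-values are Benjamini-Hochberg values over all genes tested. A gene is called when this p-value is below 0.05 and the fold is above 1.5. FABP4 reached 10 in 2 MC, 2 FC, 2 MFGR and 3 FFGR libraries. Within each group it therefore passed the filter for testing through the differentiated cells, where it is high, so these 4 calls are a description. Averaged over the 4 groups in 1 fit of the 32 libraries the change was 9.55 ± 0.69 (adjusted p = 1e-10). In bulk RNA a larger share of cells that express a gene and more RNA per cell cannot be told apart. The call in FCD was lost on leaving out FC replicate 1, 3 or 4 or FCD replicate 1, 2 or 3 (adjusted p 0.0128 to 0.174 over the 8 libraries left out in turn), and the call in FFGRD on leaving out any FFGR library or FFGRD replicate 1 or 2 (0.0368 to 0.0999). Both calls were also lost without the low-slope libraries, with log2 fold changes of 8.86 (adjusted p = 0.0524) and 9.27 (0.0656).

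FABP3, the FABP of heart and muscle (chromosome 2, 251661822 to 251670293, 2 transcripts), moved the other way. In MC it was 41.14, 180.3, 63.7 and 67.9, and in MCD 31.79, 74.13, 6.86 and 80.06, so the stages overlapped. MFGR stood at 1115, 660.3, 172.3 and 938, and MFGRD at 94.47, 55.09, 18.18 and 6.06. FFGR had 69.26, 1463, 576.5 and 37.75, and FFGRD 10.94, 8.12, 13.49 and 8.48. MFGR and FFGR therefore did not overlap with their own differentiated cells. In FC the values were 170.5, 453.5, 64.14 and 268, and in FCD 11.85, 136.4, 10.4 and 24.89. The fall was called in MFGRD (log2 -4.33 ± 0.88, adjusted p = 0.0349) and in the mean of the 4 groups (-3.15 ± 0.50, adjusted p = 1.76e-05), but not in MCD (-1.11 ± 0.76, adjusted p = 0.395), FCD (-2.84 ± 0.86, 0.211) or FFGRD (-4.31 ± 1.08, 0.0805). FABP3 reached 10 in 3 of the 4 MFGRD libraries. In that comparison it passed the filter through the preadipocytes, where it is high, so the call is a description.

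The call of FABP3 in MFGRD was lost in 6 of the 8 fits that left out 1 library, without MFGR replicate 1, 2 or 4 or MFGRD replicate 2, 3 or 4 (adjusted p 0.0313 to 0.118). With the replicate number as a block FABP3 was called in FCD (-2.84, adjusted p = 0.0433). FABP3 moved with the slope of the libraries: the 4 low-slope preadipocyte libraries had 453.5 to 1463 and the other 12 had 37.75 to 938. Without the 9 low-slope libraries the mean change of the 4 groups was -3.11 (adjusted p = 1.22e-05). Both transcripts were lower after differentiation, with medians of 10.49 against 122.7 for FABP3-201 and 5.49 against 71.31 for FABP3-202. Of 5 muscle markers 2 were tested in the mean of the groups: DES, the intermediate filament of muscle, fell (-3.43 ± 0.59), and MYH11 was not called (-1.12 ± 0.44, adjusted p = 0.0521). The summed level of the 5, of which DES made up 2306 of 2381 in the highest library, FC replicate 1, was 94.32 to 2381 in preadipocytes and 17.48 to 172.5 after differentiation. MYOG and CKM did not reach 10 in any library. The part of muscle-like cells in the change of FABP3 was not tested. FABP3 is also known from brown fat. Of 3 brown adipocyte markers UCP1 reached 10 in 0 preadipocyte and 9 differentiated libraries, so it passed the filter through the differentiated ones. PRDM16 went the other way, at 10 or more in 7 preadipocyte and 0 differentiated libraries, and CIDEA reached 10 in all 16 of each stage. CIDEA and PRDM16 were not called. Among the other 7 genes of the family only FABP7, a FABP known from brain, had enough reads to be tested, and it was not called (-0.59 ± 0.53, adjusted p = 0.434). FABP1, FABP2, FABP6, FABP9, FABP12 and PMP2 did not pass the filter.

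**Figure D1:**
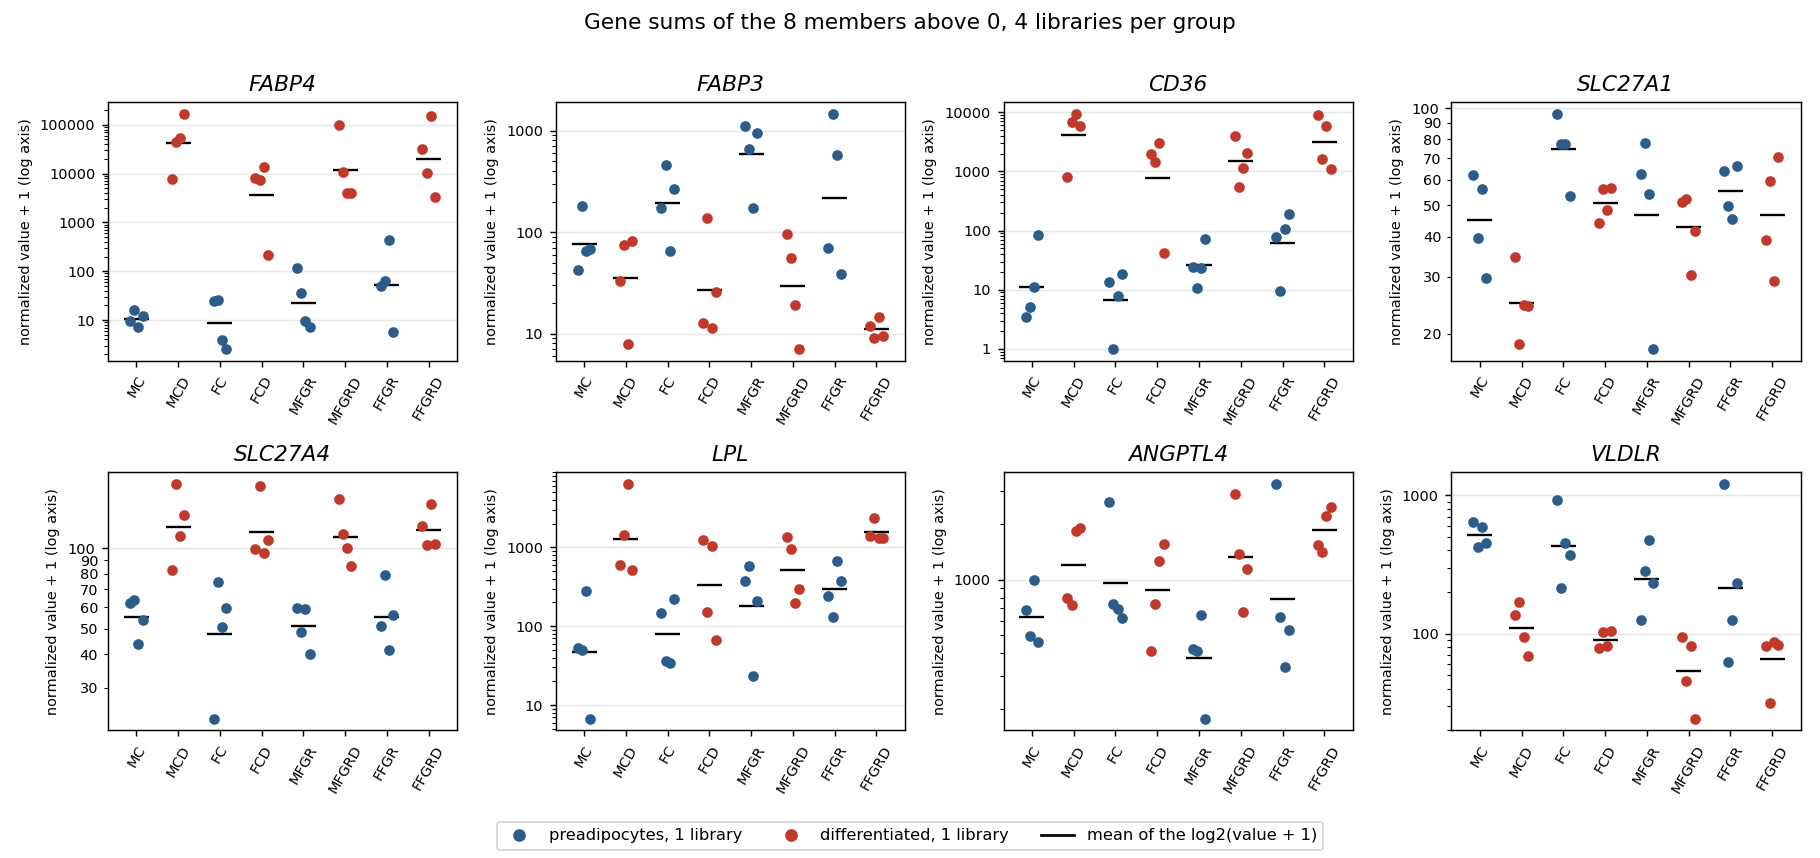
Levels of the 8 members with values above 0, as gene sum + 1 on a log axis, by group, with 1 point per library (blue for preadipocytes, red for differentiated cells) and a line at the mean of log2(value + 1) of the 4 libraries. FABP4 and CD36 lie above the group's own preadipocytes in every differentiated group, and the low FABP4 and CD36 points in FCD are replicate 4, at 215.4 and 41.55. VLDLR and FABP3 have lower means after differentiation, but the stages overlap for FABP3 in MCD and FCD and for VLDLR in FFGRD.

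CD36, the scavenger receptor and fatty acid translocase of the plasma membrane (chromosome 4, 45189097 to 45601450), had the largest mean change among the members after FABP4. Its level was 2.45, 4.05, 10.21 and 82.99 in MC and 794, 6950, 9386 and 5821 in MCD. In FC it was 12.39, 0, 6.95 and 17.78, and in FCD 1973, 1423, 2979 and 41.55. In MFGR it was 23.69, 9.75, 22.2 and 71.65, and in MFGRD 4034, 546.4, 1142 and 2008. In FFGR it was 76.71, 8.38, 105.6 and 192.3, and in FFGRD 8951, 1589, 5819 and 1104. No group overlapped with its differentiated cells, although FCD replicate 4 stayed below MC replicate 4. FABP4 and CD36 each reached 10 in only 2 of the 4 MC and 2 of the 4 FC libraries, in 2 and 3 of the 4 MFGR libraries and in 3 of the 4 FFGR libraries. In each within-group comparison they therefore passed the filter through the differentiated cells, where they are high.

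The log2 fold change of CD36 was 8.53 ± 1.04 in MCD (adjusted p = 0.00231), 6.85 ± 1.39 in FCD (0.0819, not called), 5.86 ± 0.72 in MFGRD (0.00644) and 5.63 ± 1.02 in FFGRD (0.0312). Averaged over the groups it was 6.72 ± 0.61 (adjusted p = 3.19e-09). Without FCD replicate 4 the change in FCD was 8.25 and was called (adjusted p = 0.0279). The call in FFGRD was lost on leaving out any 1 of its 8 libraries (adjusted p 0.0503 to 0.11) and without the low-slope libraries (4.35, adjusted p = 0.109). The order of the groups by mean level was MCD, FFGRD, MFGRD, FCD, FFGR, MFGR, MC and FC for both FABP4 and CD36, and in both genes all 7 neighbours in this order overlapped.

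The table lists 10 transcripts of CD36, of which 9 were above 0 in some library. CD36-210 (45502274 to 45601450) held 90.9% of the gene sum after differentiation and led in 13 of 16 differentiated libraries. CD36-208 (45281745 to 45316981) led in the other 3, with 66.0% in FCD replicate 4, 47.1% in MFGRD replicate 4 and 49.4% in FFGRD replicate 4, against 0.356% to 20.8% elsewhere. In these 3 libraries, in that order, CD36-208 was at 27.44, 945.1 and 545.5, with a median of 93.57 over the 16. CD36-210 was at 14.11, 610.4 and 300.2. The level of CD36-208 was thus high in MFGRD and FFGRD replicate 4 and low in FCD replicate 4. The 2 transcripts do not overlap, and 185292 bases lie between them. These are also the 3 differentiated libraries with the lowest ADIPOQ, at 8.59, 146.1 and 174.7, which is a description of a pattern seen in the data. CD36-208 was below 10 in every preadipocyte library (highest 8.33) and at 14.36 to 945.1 after differentiation, so it passed the filter only through the differentiated libraries and its calls add nothing to these levels. It was called in MCD (log2 6.38 ± 0.84, adjusted p = 0.0102), FCD (6.16 ± 0.78, 0.0419) and MFGRD (6.70 ± 1.27, 0.0487), while CD36-210 was called in MCD (8.56 ± 1.12, 0.0102) and MFGRD (5.48 ± 0.77, 0.0181). CD36-210 reached 10 in 1 MC and 3 MFGR libraries, so in those comparisons it also passed the filter through the differentiated cells. In FFGRD neither transcript was called. These p-values are adjusted over all transcripts tested, of which 2.83%, 0.143%, 1.32% and 0.616% were called in MCD, FCD, MFGRD and FFGRD. How Salmon divided reads between transcripts of 1 gene is an estimate, so the shares are less certain than the gene sum.

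**Figure D2:**
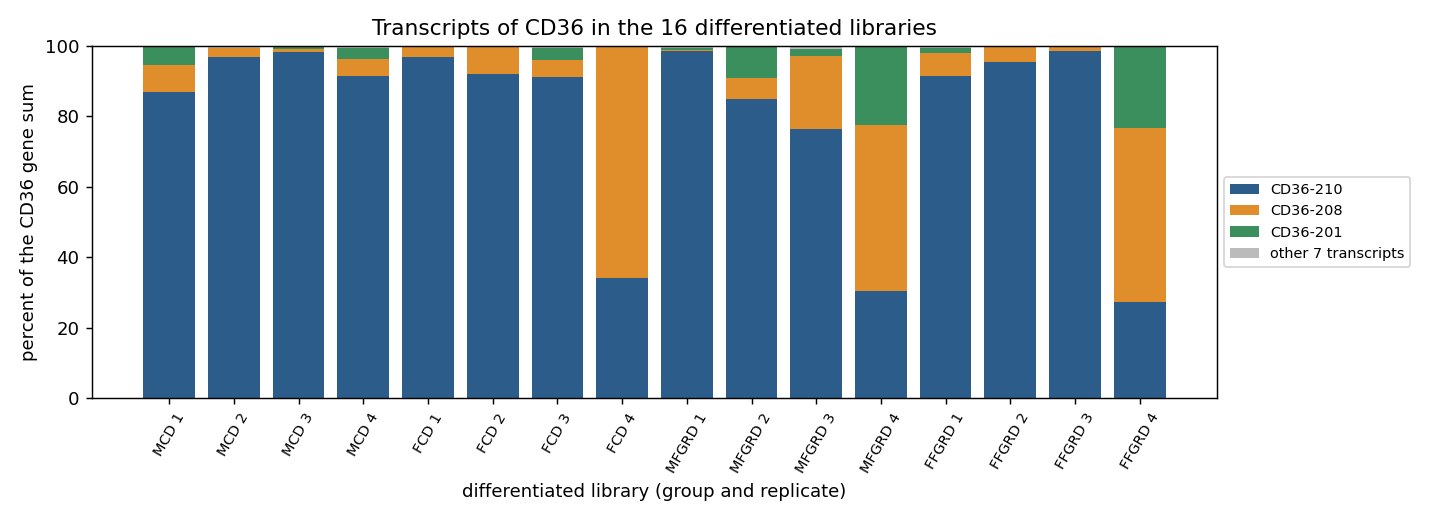
Share of the CD36 gene sum, in percent, held by CD36-210, CD36-208, CD36-201 and the other 7 transcripts in each of the 16 differentiated libraries. CD36-210 holds most of the sum except in replicate 4 of FCD, MFGRD and FFGRD, where CD36-208 holds 66.0%, 47.1% and 49.4%.

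The 2 fatty acid transport proteins differed in direction. SLC27A4 (FATP4; chromosome 3, 8206762 to 8219974) was at no more than 78.07 in the 16 preadipocyte libraries and at 81.8 to 173.2 in the 16 differentiated ones, and it was the only member whose stages did not overlap at all (1.09% of all genes tested). The values were 61.2, 62.85, 42.88 and 53.03 in MC and 81.8, 173.2, 109.9 and 131.5 in MCD. The rise was small and even, with log2 fold changes of 1.12 ± 0.33, 1.26 ± 0.43, 1.10 ± 0.30 and 1.08 ± 0.34 in MCD, FCD, MFGRD and FFGRD. None of these passed the threshold (adjusted p 0.0671, 0.263, 0.0991 and 0.155), whereas the mean of the 4 groups did (1.14 ± 0.16, adjusted p = 2.44e-06). With the replicate number as a block SLC27A4 was called in MCD (adjusted p = 0.0458) and MFGRD (0.018), and it was called in MCD without MCD replicate 1 (0.0286). The 5 low-slope differentiated libraries had the highest levels, 131.5 to 173.2 against 81.8 to 119.6 in the other 11, and without the 9 low-slope libraries the mean change was 1.03 (adjusted p = 3.81e-05).

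SLC27A1 (FATP1; chromosome 5, 5609648 to 5646798), the transporter known for insulin-stimulated fatty acid uptake in adipocytes, was the only tested member not called in any of these comparisons. It was 61.21, 38.6, 55.2 and 28.74 in MC and 33.68, 17.63, 23.61 and 23.29 in MCD. Over all libraries it was 16.94 to 94.97 in preadipocytes and 17.63 to 69.47 after differentiation, which overlap almost entirely. The mean log2 fold change of the 4 groups was -0.44 ± 0.19 (95% interval -0.82 to -0.06, adjusted p = 0.0677).

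LPL (chromosome 2, 48327343 to 48350719) was 51.38, 48.48, 276 and 5.72 in MC and 590.8, 1441, 6447 and 514.9 in MCD. It was 144.2, 35.73, 32.77 and 220.4 in FC and 1242, 148.3, 1033 and 64.99 in FCD, and these groups overlapped. In MFGR it was 375.9, 574.2, 22.17 and 205.2, and in MFGRD 1354, 945.3, 194.6 and 295.8, again with overlap. In FFGR it was 242.6, 128.6, 664.3 and 374.6, and in FFGRD 1390, 2362, 1327 and 1332. LPL rose in MCD (log2 4.79 ± 1.10, adjusted p = 0.0291), in FFGRD (2.38 ± 0.51, 0.0482) and in the mean of the groups (2.70 ± 0.54, 3e-04). It was not called in FCD (2.08 ± 1.03, 0.45) or MFGRD (1.54 ± 1.02, 0.56). LPL reached 10 in 3 of the 4 MC libraries. In MCD against MC it therefore passed the filter through the differentiated cells, so that call is a description. The call in MCD was lost without MC replicate 1 or 2 or MCD replicate 2 or 3 (adjusted p 0.0228 to 0.0874) and without the low-slope libraries (5.38, adjusted p = 0.113). The call in FFGRD was lost without any 1 of the 8 libraries (0.0637 to 0.164) and without the low-slope libraries (2.44, adjusted p = 0.0668). A block for the replicate number gave limma adjusted p-values of 0.000663 in MCD, 0.327 in FCD, 0.0557 in MFGRD and 0.1 in FFGRD. Between same-numbered libraries of MFGR and MFGRD LPL was higher after differentiation in all 4 (log2 0.53 to 3.08).

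ANGPTL4 (chromosome 5, 15327030 to 15333559), the inhibitor of LPL, was high in both stages, at 176.2 to 3301 in preadipocytes and 412.1 to 2916 after differentiation. It was 686, 494.4, 998.4 and 456.2 in MC and 795.4, 729.9, 1820 and 1892 in MCD. MFGR was at 420.9, 408.9, 643.4 and 176.2, and MFGRD at 2916, 1374, 671.3 and 1141, with no overlap. In FC and FFGR replicate 1 stood apart, at 2617 and 3301, above all the differentiated libraries of those groups. ANGPTL4 was called in the mean of the 4 groups (log2 0.97 ± 0.30, adjusted p = 0.0125) and in no single group, where the changes were 0.92 ± 0.40, -0.12 ± 0.57, 1.82 ± 0.52 and 1.24 ± 0.66 in MCD, FCD, MFGRD and FFGRD. With the replicate number as a block it was called in MFGRD (adjusted p = 0.0421). Without the low-slope libraries the mean change was 0.67 and was not called (adjusted p = 0.142).

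GPIHBP1 (chromosome 9, 15597848 to 15599625) was listed at 0 in all 32 libraries. This gene is known from capillary endothelium. Of 8 endothelial markers CDH5, TIE1 and CLDN5 did not reach 10 in any library, while EGFL7 did in all 16 preadipocyte and 12 differentiated libraries. TEK reached 10 in 9 libraries of each stage. KDR did in 5 preadipocyte and 1 differentiated libraries, PECAM1 in 4 and 2, and VWF in 3 and 1. In the mean of the 4 groups EGFL7 and KDR were called lower, and KDR passed the filter through the preadipocytes. The summed level of the 8 was 54.33 to 163.7 in preadipocytes and 16.27 to 310.9 after differentiation. The highest sum was in FCD replicate 2, with PECAM1 at 272.4.

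VLDLR (chromosome 2, 76234855 to 76267462) fell. It was 637, 420.1, 588.1 and 453.7 in MC and 136.3, 167.8, 94.03 and 67.65 in MCD. In FC it was 927.7, 213.7, 454.1 and 369.3, and in FCD 77.1, 100.9, 79.8 and 102.6. In MFGR it was 123.5, 282.3, 470.3 and 229.5, and in MFGRD 93.22, 44.46, 80.38 and 23.27. These 3 groups did not overlap between stages. In FFGR it was 1214, 61.11, 124 and 229.4, and in FFGRD 80.34, 30.27, 85.4 and 81.26, with overlap through FFGR replicate 2. The log2 fold change was -2.22 ± 0.33 in MCD (adjusted p = 0.00493), -2.24 ± 0.43 in FCD (0.0728), -2.21 ± 0.54 in MFGRD (0.0669) and -1.73 ± 0.86 in FFGRD (0.395), so only MCD passed the threshold.

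In the mean of the 4 groups VLDLR changed by -2.10 ± 0.31 (adjusted p = 5.26e-06). With the replicate number as a block it was called in MFGRD (adjusted p = 0.0258), as it was without MFGR replicate 1 (0.0431), and in FCD it was called without FC replicate 2 (0.022). The 4 low-slope preadipocyte libraries had the lowest levels, 61.11 to 213.7 against 229.4 to 1214 in the other 12. Without the low-slope libraries the mean change was -2.69 (adjusted p = 1.4e-06), and VLDLR was called in FCD (-2.63, adjusted p = 0.0245) and MFGRD (-2.81, 0.0364). VLDLR-202 held 98.8% of the gene sum in preadipocytes, and in MFGRD replicate 4 the whole value was assigned to VLDLR-201.

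**Figure D3:**
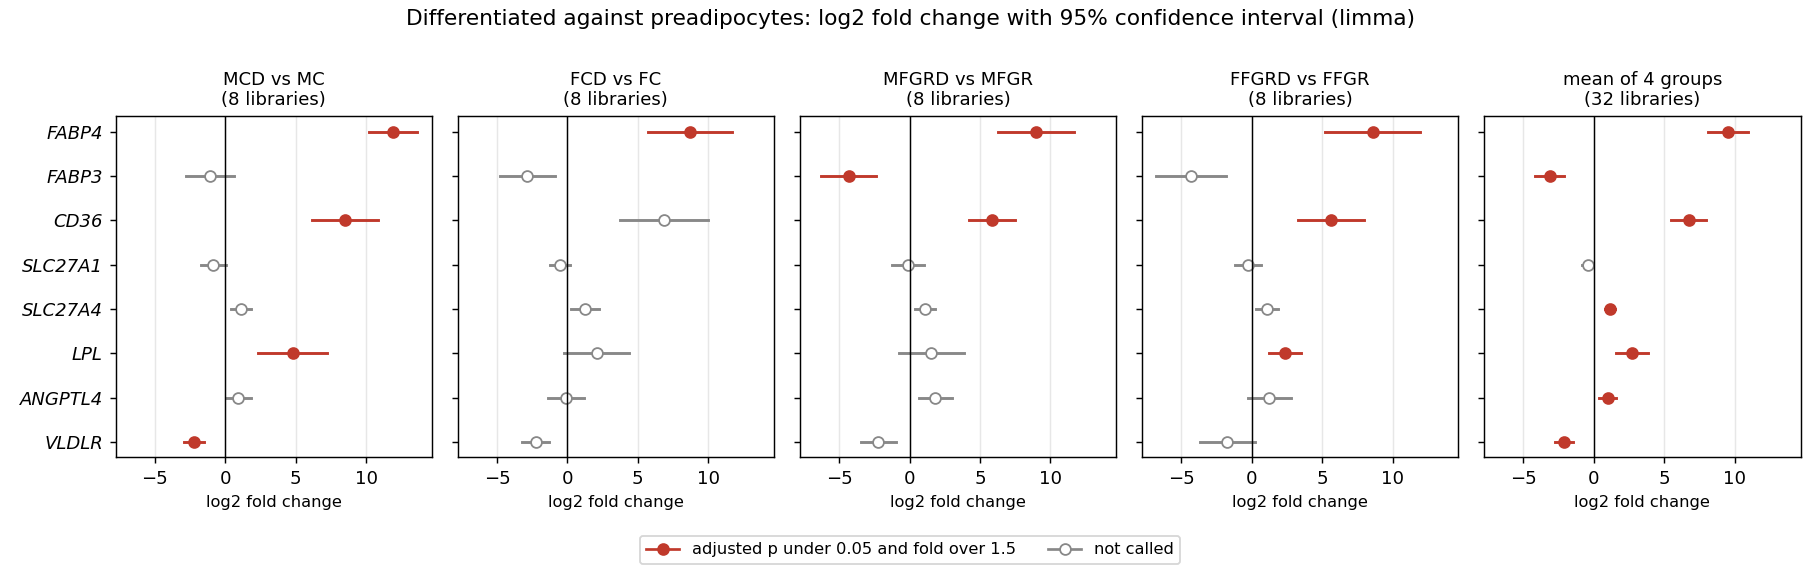
Log2 fold change (differentiated minus preadipocytes, on log2(value + 1)) of the 8 tested members in each group and in the mean of the 4 groups, with 95% confidence intervals. Filled red points are called and open grey points are not. The signs are alike in every panel except for ANGPTL4, which is at -0.12 in FCD, and in the mean of the groups 7 of 8 are called.

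Of the 8 members tested, 4 were called in MCD (7.53% of all genes tested were called), 1 in FCD (0.43%), 3 in MFGRD (3.38%), 3 in FFGRD (2.67%) and 7 in the mean of the 4 groups (27.2%). By direction, 3 were higher (3.33% of all genes) and 1 lower (4.21%) in MCD, 1 was higher in FCD (0.181%), 2 were higher (1.22%) and 1 lower (2.16%) in MFGRD, 3 were higher in FFGRD (0.914%), and 5 were higher (12.4%) and 2 lower (14.8%) in the mean. The stages did not overlap for 5, 4, 6 and 5 members in the 4 groups, against 16.1%, 10.1%, 11.1% and 11.3% of all genes tested. In a fit with the replicate number as a block, 5 members were called in MCD, 2 in FCD, 6 in MFGRD and 2 in FFGRD. The within-group counts include FABP4 and CD36, which passed the filter through the stage where they are high, as did LPL in MCD (3 of 4 MC libraries at 10 or more) and FABP3 in MFGRD (3 of 4 MFGRD libraries), so these counts are a description. The 4 within-group comparisons share no library.

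The study asked whether growth restriction changes the cells of males and females differently. No member was called between growth-restricted and control preadipocytes, where limma called 0 of all genes at the threshold and 306 of 12138 had an unadjusted p below 0.05. Of the members 4 were among those 306, each with an adjusted p of 0.833. CD36 was higher in growth-restricted preadipocytes (lowest, median and highest 8.38, 47.67 and 192.3) than in controls (0, 8.58 and 82.99) by a log2 difference of 2.21 ± 0.82 (unadjusted p = 0.0175). LPL was at 22.17, 308.6 and 664.3 against 5.72, 49.93 and 276 (1.92 ± 0.79, unadjusted p = 0.028). FABP4 was at 4.65, 41.42 and 444.5 against 1.56, 9.90 and 24.41 (1.83 ± 0.84, unadjusted p = 0.0461). FABP3 was at 37.75, 618.4 and 1463 against 41.14, 119.2 and 453.5 (1.57 ± 0.72, unadjusted p = 0.045).

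The 2 groups of preadipocytes overlapped in all 4 genes. Without the low-slope libraries, which number 3 of 8 growth-restricted and 1 of 8 control preadipocyte libraries, the differences were 2.25, 1.57, 0.87 and 0.59 for CD36, LPL, FABP4 and FABP3. ADIPOQ was at 4.24, 17.09 and 215.7 in growth-restricted and 0, 6.92 and 23.17 in control preadipocytes. FFGR replicate 4, which had the highest CD36 of the preadipocytes, also had the highest PTPRC (55.75) and CD163 (545.5), both macrophage markers. The part of ADIPOQ, of macrophages and of the slope in these differences was not tested further.

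After differentiation limma again called 0 genes between growth-restricted and control cells, with 87 of 12069 at an unadjusted p below 0.05. VLDLR was the only member among them, at 23.27, 80.36 and 93.22 in growth-restricted cells and 67.65, 97.45 and 167.8 in controls (log2 -0.76 ± 0.32, unadjusted p = 0.0333, adjusted p = 1). FABP4 differed by 0.30 (95% interval -1.90 to 2.50) and CD36 by 0.26 (-1.53 to 2.06), and both differences turn negative without FCD replicate 4 (-0.38 and -0.43). LPL differed by 0.45 (-0.99 to 1.89). These intervals leave room for differences of several fold in either direction.

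Between males and females limma called 0 genes in either stage (470 of 12138 and 94 of 12069 at an unadjusted p below 0.05), and the groups overlapped for all members, where 0.0165% of all genes did not overlap in preadipocytes and 0% in differentiated cells. The member nearest to a difference was SLC27A1 in differentiated cells, at 17.63, 31.54 and 51.15 in males and 28.13, 51.24 and 69.47 in females (log2 -0.58 ± 0.25, unadjusted p = 0.0325, adjusted p = 1).

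The response to differentiation was compared between groups in the fit of all 32 libraries. The response in growth-restricted cells minus that in controls was -2.35 ± 1.01 for FABP3 (unadjusted p = 0.0274, adjusted p = 0.988), -1.53 ± 1.39 for FABP4, -1.94 ± 1.23 for CD36 and -1.47 ± 1.09 for LPL. No gene was called, and 132 of 12737 had an unadjusted p below 0.05. For FABP3 the difference was -0.75 without the low-slope libraries. In MFGR, set against the mean of the other 3 groups, the response differed by -0.76 for FABP4 (95% interval -4.04 to 2.52), -1.15 for CD36 (-4.05 to 1.76) and -1.54 for LPL (-4.11 to 1.03). Each had an adjusted p of 1, and limma called 0 genes (74 at an unadjusted p below 0.05). Nor was a gene called for males minus females, where no member and 116 genes were below 0.05 without adjustment.

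Within the 16 differentiated libraries the level of FABP4 followed that of ADIPOQ. Over log2(value + 1) Pearson's r was 0.94 and Spearman's rho 0.89 (permutation p = 1e-05 and 5e-05, adjusted over 8 relations 4e-05 and 0.0004), where 1e-05 is the smallest p that 100000 permutations can give. For CD36 r was 0.90 and rho 0.80 (permutation p = 1e-05 and 0.00037, adjusted 4e-05 and 0.00148). Without the 2 libraries farthest from the median of ADIPOQ, FCD replicate 4 and MCD replicate 3, r was 0.90 for FABP4 and 0.78 for CD36. Within the 8 control and the 8 growth-restricted libraries r was 0.97 and 0.90 for FABP4 and 0.98 and 0.75 for CD36, and without the low-slope libraries (n = 11) it was 0.96 and 0.88 for the 2 genes.

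LPL also rose with ADIPOQ (r = 0.69, rho = 0.65, permutation p = 0.00325 and 0.00841, adjusted 0.00867 and 0.0224). Its r was 0.40 without those 2 libraries, so it depends in part on them. Within control and growth-restricted cells r was 0.83 and 0.41, and without the low-slope libraries it was 0.77. SLC27A1 went the other way (r = -0.60, rho = -0.60, permutation p = 0.0124 and 0.015, adjusted 0.0248 and 0.0301), with r = -0.56 without the 2 libraries and -0.77 and -0.42 in control and growth-restricted cells. For FABP3, VLDLR, SLC27A4 and ANGPTL4 r was 0.13, 0.23, 0.42 and 0.17, and none passed the adjusted threshold.

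**Figure D4:**
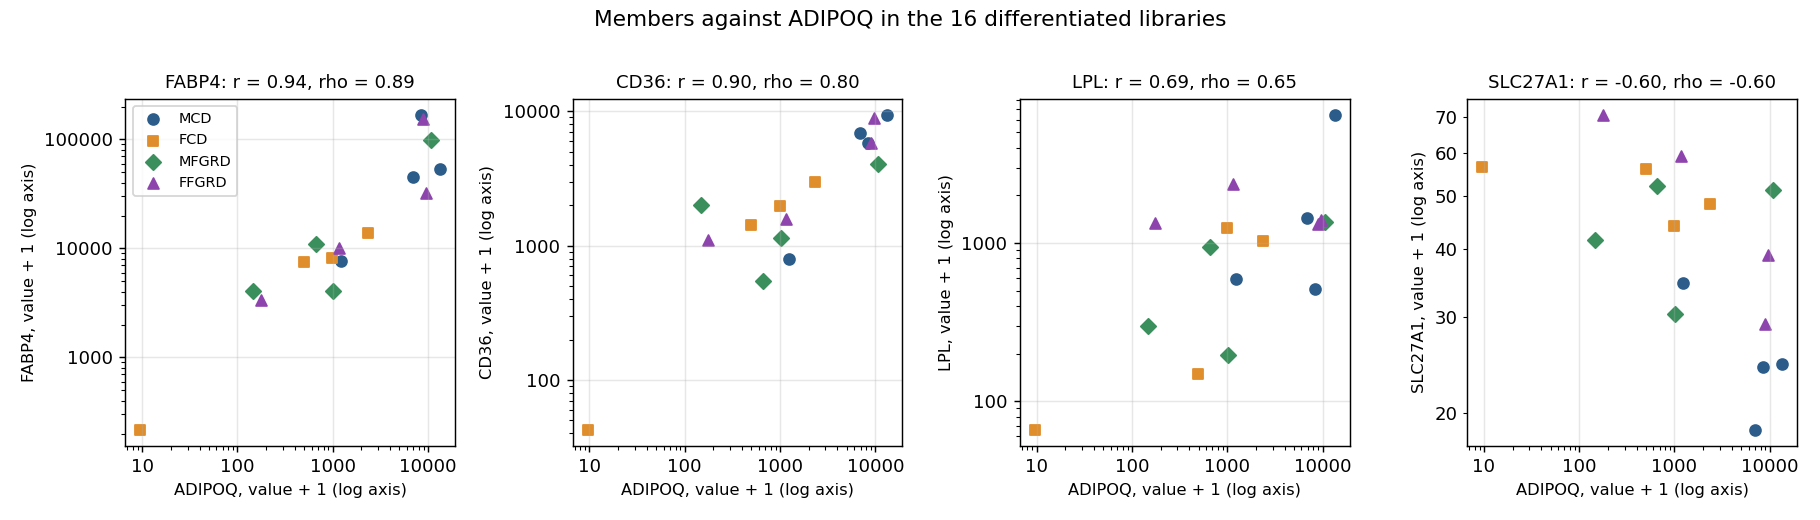
Level of FABP4, CD36, LPL and SLC27A1 (vertical, value + 1, log axis) against that of ADIPOQ (horizontal, value + 1, log axis) in the 16 differentiated libraries, by group. FABP4 and CD36 rise with ADIPOQ through the whole range, and the lowest point on the left is FCD replicate 4.

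FCD replicate 4 shows how the members part. In this library FABP4 was at 215.4, CD36 at 41.55 and LPL at 64.99, the lowest of all 16 differentiated libraries for each. SLC27A4, at 105.8, VLDLR, at 102.6, and FABP3, at 24.89, lay inside the range of the other 15 differentiated libraries and outside the range of the 4 FC libraries. SLC27A1, at 55.64, and ANGPTL4, at 1563, lay inside both ranges. Of the fibroblast markers COL1A1 was at 565500 there, the highest of the 16, whereas PDGFRA (10520), PDGFRB (1098) and THY1 (633.7) lay within the range of the other FCD libraries. COL3A1 was highest in FCD replicate 3, at 436000. The summed level of the 6 preadipocyte or fibroblast markers was highest in FCD replicate 4, at 906200, against a median of 445000 in the 16.

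By likeness of pattern over the same 16 libraries, the named genes with the highest Pearson's r to FABP4 among 10611 genes were PLAAT3 (0.970), DGAT2 (0.964) and PPARG (0.959). DGAT2 carries out the last step of triglyceride synthesis. For CD36 they were SLC26A8 (0.952), KLB (0.917) and EEPD1 (0.915), and for LPL TMEM135 (0.868), RXRA (0.857) and EFNA5 (0.820). For FABP3 S100A4 (0.866) and LMNA (0.845) were among the highest, and for VLDLR PHLDA1 (0.896), SLC43A3 (0.831) and VAPA (0.828). TBRG4 (0.959), DOHH (0.955) and MLF2 (0.955) were nearest to SLC27A4, CDH3 (0.831), CFAP45 (0.822) and NPNT (0.807) to SLC27A1, and LMO1 (0.832), HSF2BP (0.809) and TXNDC12 (0.807) to ANGPTL4. These are descriptions of 16 libraries that share their groups, depth and slope, and no 2 members had a gene in common.

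Other genes of fatty acid uptake moved in part. In the mean of the 4 groups 12 of 29 tested genes from 5 short lists were called, with 27.2% of all genes called and a median change of all genes of 0.03. The 12 include SLC27A6 and SORL1, which reached 10 in 0 and 2 preadipocyte libraries and passed the filter through the differentiated ones, and MFSD2A, which reached 10 in 13 preadipocyte and 3 differentiated libraries. Of 11 genes of membrane transport 4 rose and 1 fell (median 0.60). They were SLC27A6, a fatty acid transport protein (log2 4.39 ± 0.58), CAVIN2 and CAV1 of the caveolar coat (3.51 ± 0.57 and 1.47 ± 0.50) and SLC27A3 (2.79 ± 0.34), all higher, and MFSD2A, a carrier of lysophospholipids with long-chain fatty acids, lower (-2.14 ± 0.51). SLC27A6 was listed at 0 in all 4 MC libraries and stood at 14.54, 84.95, 149.2 and 94.09 in MCD. CAV2, CAVIN1, GOT2, ZDHHC4, ZDHHC5 and SLC27A2 were not called, FFAR4 did not pass the filter, and SLC27A5 was not found by name. In single groups SLC27A3, SLC27A6, CAV1 and CAVIN2 were called in MCD, SLC27A3 in FFGRD and none of the list in FCD or MFGRD. SLC27A3 reached 10 in 2 MC and 1 FFGR libraries, and SLC27A6 in 0 MC libraries. Both passed the filter there through the differentiated cells, so these calls of SLC27A3 and SLC27A6 are a description. SLC27A6 could not be tested in FCD, MFGRD or FFGRD, where it did not pass the filter.

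Of 8 tested genes of LPL maturation and control 3 rose and 1 fell (median -0.01). SORL1, a sorting receptor that binds LPL, was at 14.31 or less in preadipocytes and at 8.61 to 586 after differentiation (5.17 ± 0.48). It was called in MCD, FCD and FFGRD, where it again passed the filter through the differentiated cells, and it was not tested in MFGRD. In FCD replicate 4 it was at 345.4, the highest of that group. FURIN and PCSK5, proprotein convertases that can cleave LPL and the ANGPTL proteins, rose (1.64 ± 0.20 and 1.21 ± 0.33), and SORT1 fell (-1.19 ± 0.18). LMF1, LMF2 and SEL1L, which serve the folding of LPL, were within 0.23 of 0 and were not called. Of the lipoprotein receptors LRP1 (0.35 ± 0.64), LRP8 (0.54 ± 0.24) and SCARB1 (0.06 ± 0.23) were not called, and LSR did not pass the filter. Of 6 nuclear factors PPARG (2.26 ± 0.48), its partner RXRA (1.09 ± 0.20) and CEBPA (4.02 ± 0.46) rose, PPARD passed the p threshold but not the fold (0.56 ± 0.10), and PPARA and CEBPB were not called (median 0.83). Single groups gave fewer calls: PPARG, RXRA and CEBPA in MCD, none in FCD or MFGRD, and CEBPA in FFGRD.

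**Figure D5:**
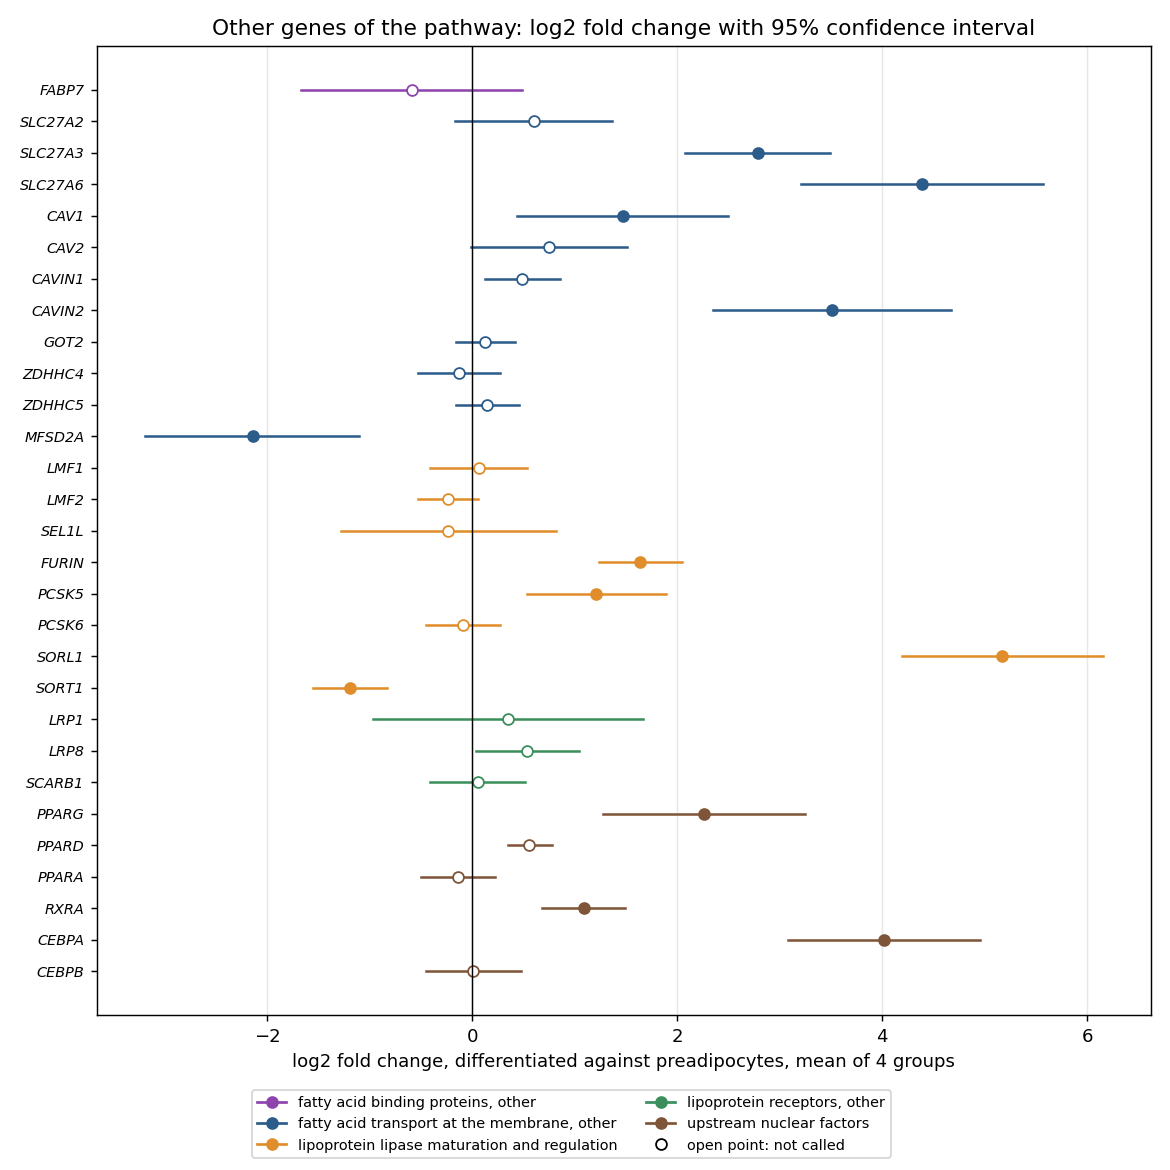
Log2 fold change (differentiated minus preadipocytes, mean of the 4 groups) of the 29 other genes tested, with 95% confidence intervals, coloured by list. Filled points are called. SORL1, SLC27A6, CEBPA, CAVIN2 and SLC27A3 lie farthest to the right, from 5.17 to 2.79, and MFSD2A farthest to the left, at -2.14.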

How the data were processed

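Per the labels and the study's methods, the authors sequenced RNA libraries on a NextSeq500, checked reads with FastQC, quantified transcripts of Oar_rambouillet_v1.0 with Salmon and normalized them with DESeq2. The deposited values are such a normalized signal, 1 per transcript and library, with a further factor for each transcript, and whole reads could not be recovered. The authors' group means, fold changes and p-values were not used.

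Here the transcripts of each gene identifier were summed. Genes with a sum of at least 10 in 4 libraries of a fit were tested with limma 3.58.1 (R 4.3.3; trend on mean level) on log2(value + 1), each pair of groups on its own 8 libraries, growth and sex on the 16 libraries of a stage, and the mean of the 4 groups and the differences in response on all 32. Benjamini-Hochberg adjustment covered all genes tested, and a call needed an adjusted p below 0.05 and a fold above 1.5. Only the limma step was tested on simulated data, for MC against MCD with known changes. That simulation planted no change in genes near 0. It did not cover the other fits or the slope of the libraries. Correlations with ADIPOQ used 100000 permutations. Every tested member is named, with other genes from lists of the pathway and cell type markers, and the 3 genes most like each member; some genes of the lists are not reported here, and the counts leave them out. The members and lists were chosen with earlier results of these data known.

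Replicate numbers are shared between groups. Correlations of the deviations of same-numbered libraries were 0.16 to 0.61 for MC and 0.30 to 0.51 for FC. For MFGR they were 0.39 to 0.67 and for FFGR -0.40 to 0.56. All 4 differentiated libraries correlated best with their own number in MC, FC and MFGR, against 1 in FFGR. The numbers may therefore pair libraries in the first 3 groups, but the labels state no pairing and the main fits use none. Low slope is shared by FC 2 and FCD 2 and by MFGR 1 and MFGRD 1. Its part in these correlations was not tested. Alternatives were a pseudocount of 0.1, quantile normalization, other filters, the replicate block, the slope as a covariate, 1 fit of all groups and leaving out libraries. No 2 libraries held identical values.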

Additional observations from a re-analysis of the deposited data

Results flagged for a closer look

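In 4 of 64 groups of 4 libraries, 1 library stood apart from the other 3 by Dixon's test, which chance does in about 1 of 20 groups. FABP4 was at 215.4 in FCD replicate 4, below 7555 to 13870 in the other 3. LPL was at 2362 in FFGRD replicate 2, above 1327 to 1390. VLDLR was at 30.27 in the same library, below 80.34 to 85.4. ANGPTL4 was at 2617 in FC replicate 1, above 616.2 to 738.3.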

How the results depend on the processing

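The number of members called in MCD (4) and in the mean of the 4 groups (7) stayed within 1.5 times under all alternatives, with ranges of 3 to 5 and of 7 to 7 on leaving out 1 library. In FCD (1) it was 0 with a stricter filter (20 in 3 libraries, each scaled to 1 M), 2 with quantile normalization, with the replicate block or without FCD replicate 4 and FFGR replicate 3, 4 with the slope as covariate or in 1 fit of all 8 groups, and 0 to 2 on leaving out 1 library. In MFGRD (3) it was 6 with the block or the slope, 5 in the fit of all 8 groups and 2 to 3 with 1 library left out. In FFGRD (3) it was 0 with the stricter filter, without the 9 low-slope libraries or without FFGR replicate 3, 5 with the slope, 2 with the block and 0 to 1 with 1 library left out. The called transcripts (8) numbered 5 to 8, the lowest on leaving out MCD replicate 3, or replicate 2 of MFGR or MFGRD. The cause was not tested.

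Among single values that did not pass, the sign turned for ANGPTL4 in FCD (-0.39 to 0.37 with 1 library left out), for SLC27A1 in MFGRD (-0.58 to 0.13) and for FABP4 in the response of MFGR (-1.79 to 0.02). Between growth-restricted and control differentiated cells FABP4 was -0.10 with quantile normalization, 0 without the low-slope libraries, -0.38 without FCD replicate 4 and -0.38 to 0.73 with 1 library left out. CD36 was -0.43 without FCD replicate 4 and -0.43 to 0.59, and LPL -0.23 without the low-slope libraries. Of the other values 419 kept direction and side of the threshold, 26 passed it newly and 18 no longer passed it under the alternatives that keep all libraries or leave out several, and 826, 4 and 38 did so with 1 library left out.

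All genes called numbered 874 in MCD, 50 in FCD, 393 in MFGRD and 310 in FFGRD. With the replicate block they numbered 1854, 197, 2081 and 182, with the slope 696, 434, 1652 and 1893, with the stricter filter 427, 11, 127 and 31, in 1 fit of all 8 groups 1063, 321, 654 and 1315, and without the low-slope libraries 195, 209, 438 and 2. In FCD 27 were called with no filter on low values, and in FFGRD 34 without FFGR replicate 3. With 1 library left out they numbered 311 to 1746 in MCD, 0 to 95 in FCD, 77 to 317 in MFGRD and 26 to 259 in FFGRD, with the fewest without MCD replicate 3, FCD replicate 3, MFGRD replicate 2 and FFGRD replicate 2. In the mean of the 4 groups 3466 became 1721 with the stricter filter. All comparisons between growth groups, sexes or responses gave 0 calls under each alternative run. Depth limits FABP4 and CD36 in preadipocytes, where a level of 10 stood for 5.6 to 14.4 reads.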
